A study of Mus musculus with 27 samples.

Results

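The knockdown of MOF in WD44 cells was profiled on 4 arrays. WD44 is a male mouse embryonic stem (ES) cell line that was derived from BL6 blastocysts. The arrays labelled WD44_MOF RNAi-1 and -2 and WD44_control RNAi-1 and -2 were taken by their titles from the 27 arrays of the series. In each of 2 experiments 1 culture received small interfering RNAs (siRNAs) against MOF and 1 received negative control siRNAs (Stealth or Silencer), in a reverse transfection with Lipofectamine RNAiMax, so that both groups went through transfection. The siRNA amount was 100 pmol for 48 h in 1 round, with no second round. The cells had been kept with LIF on mouse embryonic fibroblast feeders, which were depleted on gelatin before transfection. Of 35556 probesets on the array (each a set of probes over 1 transcript), 21789 carried a single gene symbol and 18870 of these had a mean log2 value of at least 6 over the 4 arrays. These 18870 probesets, for 17282 genes, are described here. Comparisons are drawn with MOF knockdown in 2 other ES lines of the series. E14 is a male Cast/BL6 hybrid line with 2 experiments of the same single round. PGK12.1 is a female line with 3 experiments; its experiment 3 was treated like WD44, and in the other 2 the cells were transfected again with 400 pmol and kept for a further 24 h.

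MOF, encoded by Kat8, is the acetyltransferase that places the acetyl group on lysine 16 of histone H4. It works in separate assemblies, the MSL complex, known in flies for dosage compensation of the male X chromosome, and the NSL complex, which sits at promoters of widely expressed genes. In ES cells MOF is known as a factor needed for self-renewal and normal transcription.

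The 4 arrays resembled each other closely. Their medians lay between 7.89 and 7.96 on the log2 scale, and any pair correlated at 0.9929 to 0.9961 across all probesets. The 2 control arrays correlated at 0.9961 and the 2 knockdown arrays at 0.9960. Array medians in the other lines ran from 6.22 to 6.81, so levels are not compared between lines and only differences are. The labelled cell type was borne out by its markers. Pou5f1, Nanog and Sox2, the core pluripotency factors, had mean log2 values of 12.87, 12.50 and 12.57. The Y-linked genes Eif2s3y and Uty stood at 10.01 and 9.51 and Xist, the RNA of the inactive X, at 6.77. Of 22 feeder fibroblast markers 21 were on the array and 19 were tested, and 0 were called, against 1.24% of all genes. At that share, 0 calls among 19 genes say little. Groups of these markers were separate upward for 9 and downward for 3, against 29.1% and 27.9% of all genes. The log2 of their summed level was 12.60 and 12.70 in control arrays and 12.69 and 12.66 in knockdown arrays. Lum was at 4.66 and Postn at 6.14, below the array medians, whereas Thy1 (8.74) and Col1a1 (9.22) were above them. In whole cultures, fewer cells of a type and less RNA per cell cannot be told apart.

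The targeted gene was measured first. Kat8 had log2 values of 10.62 and 10.53 in the control arrays of experiments 1 and 2, and of 9.67 and 9.80 in the knockdown arrays. Both knockdown arrays lay below both control arrays. Relative to the control of the same experiment, 51.8% and 60.3% of the Kat8 signal was left. Kat8 fell by 0.84 (SE 0.0794, limma adjusted p = 0.0198, n = 2 per group). In E14 the Kat8 difference was -0.76 and -0.59, and in PGK12.1 it was -1.37, -1.24 and -1.06. The other subunits of its complexes did not pass the test. Of the 4 MSL genes tested, Msl1 (0.14), Msl2 (0.02) and Msl3 (0.07) differed little. Among 10 NSL genes Kat8 was the 1 called, and the median difference was 0.02. For Kansl1, the NSL scaffold, the probeset with the higher level (10391990) differed by 0.12 (adjusted p = 0.338). Another Kansl1 probeset (10392010) rose, from 10.07 and 10.09 to 10.93 and 10.72 (0.75, adjusted p = 0.0288). The 2 probesets of this gene therefore disagree. None of 10 genes for other MYST acetyltransferases and H4K16 deacetylases was called (median -0.06). The one with the smallest p was the deacetylase Hdac3, at 12.04 and 12.05 in controls and 11.78 and 11.81 after MOF siRNA (-0.25, adjusted p = 0.0873).

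Differences across the transcriptome were small, and those called were more often downward. At a Benjamini-Hochberg adjusted p under 0.05 in limma, 76 of 18870 probesets were higher after MOF siRNA (0.403%) and 167 were lower (0.885%). Together these 243 are 1.29% of the probesets tested, and they belong to 231 genes, 76 higher and 155 lower. The called changes started at 0.385 on the log2 scale, and 61 of the 243 called probesets changed by more than 1.5-fold on average. In both experiments 8 probesets were more than 1.5-fold higher (0.0424%) and 32 more than 1.5-fold lower (0.17%). For 28.5% of all probesets both knockdown arrays lay above both controls, and for 27.9% both lay below, 56.4% in all. Counted with 1 probeset per gene, that with the highest mean, 214 of 17282 genes were called (1.24%), and 57% had separate groups. By that count 7 genes were more than 1.5-fold higher in both experiments (0.0405%) and 24 lower (0.139%). The median difference over all probesets was 0.005. Centring each array on its median changed the split to 99 higher and 577 lower.

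These calls rest on 2 arrays a group. With the experiment as a block the fit has 1 residual degree of freedom, no probeset was called (smallest adjusted p = 0.234), and 3822 probesets had an unadjusted p under 0.05, against 5086 without the block. Leaving out control 1, control 2, knockdown 1 or knockdown 2 in turn also left 0 calls, each fit having 1 residual degree of freedom. With the block and a spread pooled over all 27 arrays, an alternative added after the values were seen, 1806 probesets were called. Of the 243 called above, 227 were among these in the same direction. An exact permutation test of 2 arrays against 2 cannot give a two-sided p under 0.333, and nothing in the labels says that the experiments used separately derived cells, so p-values measure the spread between these arrays.

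**Figure D1:**
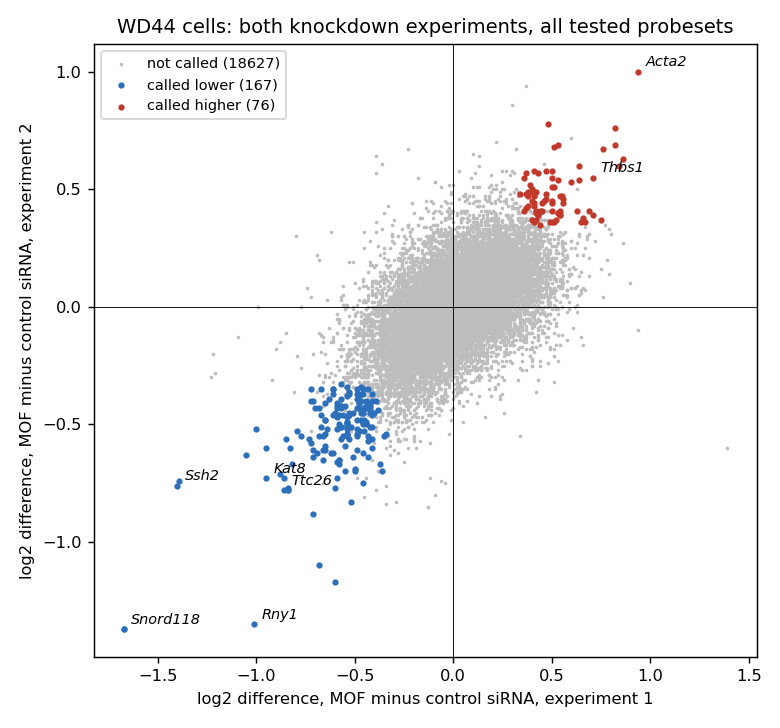
Log2 difference, MOF minus control siRNA, in experiment 1 (horizontal) and experiment 2 (vertical) for the 18870 probesets tested in WD44 cells. Grey points were not called, and the 76 probesets called higher (red) and 167 called lower (blue) lie in the upper right and lower left corners, with Acta2 and Snord118 farthest out.

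The difference also depended on level. The probesets were split by mean log2 value into 5 bins of about equal size. In bin 1, the dimmest (mean of 6 to 7.15), the median difference was 0.115, and in bin 2 it was 0.075. In bins 3, 4 and 5 it was -0.04, -0.065 and -0.045. Both experiments showed the same sign in each bin, with 0.16 in experiment 1 and 0.07 in experiment 2 for the dimmest bin. The knockdown arrays therefore had a slightly narrower range of values. After cyclic loess normalization of the 4 arrays the medians of the bins ran from -0.0366 to 0.0136, and 175 probesets were called higher and 411 lower. Of the 76 called higher in the main fit 65 were kept after loess, and of the 167 called lower 167 were kept. Loess values are given beside several of the lists below.

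**Figure D2:**
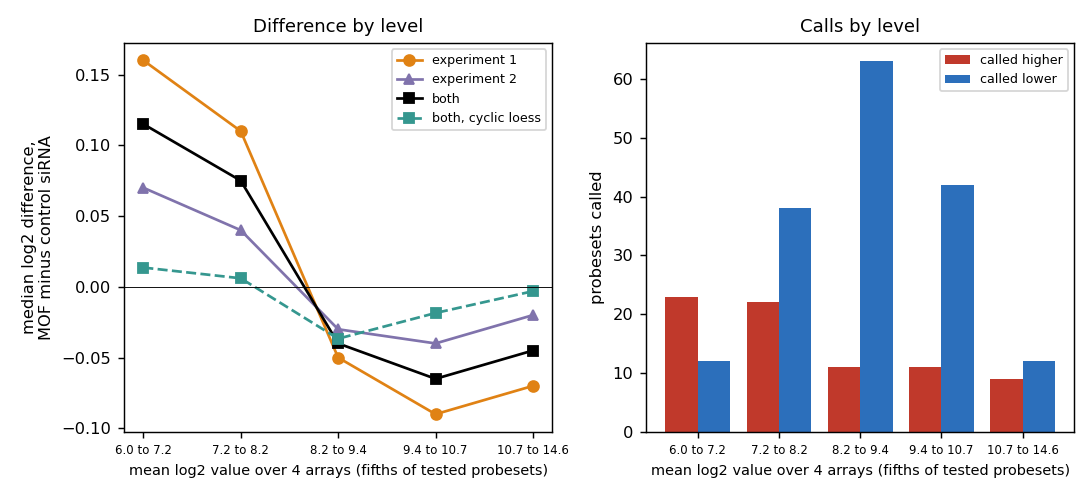
Left, median log2 difference (MOF minus control siRNA) in each of 5 bins of the tested probesets by mean log2 value, for each experiment, for both and after cyclic loess; right, number of probesets called higher or lower in each bin. The median runs from 0.115 in the dimmest bin to -0.065 in bin 4, and most lower calls (63 and 42) fall in bins 3 and 4.

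The largest rise was that of an actin gene, and 3 other genes of the list of actin cytoskeleton targets of SRF and YAP were called higher with it. Acta2, the smooth muscle alpha-actin, had log2 values of 11.46 and 11.39 in control arrays and 12.40 and 12.39 in knockdown arrays. The groups were far apart and the knockdown arrays nearly equal, for a rise of 0.97 or 1.96-fold (SE 0.0707, adjusted p = 0.00868). Acta1, the skeletal muscle alpha-actin, rose from 9.86 and 9.63 to 10.37 and 10.31 (0.60, SE 0.0914, adjusted p = 0.0398). Thrombospondin 1, an adhesive glycoprotein of the matrix encoded by Thbs1, rose from 12.03 and 12.04 to 12.74 and 12.59 (0.63, adjusted p = 0.0315). Ccn1, a secreted matricellular protein and a standard readout of the coactivator YAP, rose from 12.33 and 12.32 to 12.88 and 12.79 (0.51, adjusted p = 0.0345). Edn1, the peptide endothelin 1 and no member of the list below, was named after its values were seen, and rose from 8.63 and 8.59 to 9.16 and 9.13 (0.54, adjusted p = 0.0331).

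SRF and YAP are the best known transcriptional routes from the actin cytoskeleton to the nucleus. SRF binds the CArG box, and YAP acts through TEAD factors, which bind GGAATG. The sequences of the 250 bases before the start of 4 of these genes are shown. They were picked because the genes rose together and their promoters hold these letters. Thbs1, which also rose, was not among the genes with a match. The sequences come from the RefSeq promoter table for GRCm38.p6, read in the direction of the gene. Capitals mark GGAATG or its complement CATTCC and, in Acta1 only, an exact CArG box (CC, any 6 of A or T, GG) as well. Stretches that depart from this pattern by a single base were not counted and stay in lower case. In Acta2 these include ccctatatgg and ccttgtttgg, so the lack of capitals does not show that a CArG-like element is absent. The printed sequences lie at chr19:34255374-34255623 (minus strand) for Acta2, chr8:123894776-123895025 (minus) for Acta1, chr3:145649986-145650235 (minus) for Ccn1 and chr13:42301226-42301475 (plus) for Edn1.
Acta2: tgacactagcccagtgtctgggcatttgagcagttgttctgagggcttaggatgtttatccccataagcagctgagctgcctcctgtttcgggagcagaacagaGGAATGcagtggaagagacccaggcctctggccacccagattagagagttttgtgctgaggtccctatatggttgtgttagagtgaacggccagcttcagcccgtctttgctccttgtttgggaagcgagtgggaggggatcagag
Acta1: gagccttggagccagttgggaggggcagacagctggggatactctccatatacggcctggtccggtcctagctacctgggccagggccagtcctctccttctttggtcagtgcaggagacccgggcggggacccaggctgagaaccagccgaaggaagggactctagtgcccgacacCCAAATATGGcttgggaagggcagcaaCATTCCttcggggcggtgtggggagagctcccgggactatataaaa
Ccn1: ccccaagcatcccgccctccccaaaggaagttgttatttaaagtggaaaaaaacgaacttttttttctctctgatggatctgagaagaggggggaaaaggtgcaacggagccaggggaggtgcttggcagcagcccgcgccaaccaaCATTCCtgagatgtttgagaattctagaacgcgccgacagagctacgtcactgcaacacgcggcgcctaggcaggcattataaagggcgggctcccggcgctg
Edn1: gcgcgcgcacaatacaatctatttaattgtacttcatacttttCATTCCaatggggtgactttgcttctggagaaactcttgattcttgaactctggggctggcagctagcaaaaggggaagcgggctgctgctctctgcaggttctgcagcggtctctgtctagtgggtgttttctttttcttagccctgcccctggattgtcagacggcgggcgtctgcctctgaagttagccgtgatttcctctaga
Measured from the base before the start, the TEAD match ends at 141 in Acta2, 41 in Acta1, 98 in Ccn1 and 202 in Edn1, and the CArG box of Acta1 ends at 64. On either strand, GGAATG occurs in 14.6% of 27025 RefSeq promoter windows of 300 bases and the CArG box in 1.57%. GGAATG occurs in 12.6% of the 13080 windows of tested protein-coding genes. Among genes called lower it occurs in 17 of 117 windows (14.5%). Among genes called higher it occurs in 7 of 37 windows, which is too few to read a share. A match is a description of letters in these windows. Of the 29 list genes 23 have a window, which is too few to read a share for the list, and among the 12 of them with GGAATG were Acta1, Acta2 and Ccn1.

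The list of actin cytoskeleton targets of SRF and YAP held 29 genes, all on the array and tested. Of these, 4 were called higher and 0 lower, against 0.399% and 0.839% of all 17282 genes, and 25 did not pass. The median difference was 0.21 (0.005 over all genes), with 0.20 in experiment 1 and 0.19 in experiment 2, and it was 0.22 after loess. Both knockdown arrays lay above both controls for 19 genes and below for 3, against 29.1% and 27.9% of all genes. Close to the threshold were beta-tropomyosin Tpm2 (0.41, adjusted p = 0.0507), caldesmon Cald1 (0.36, adjusted p = 0.0524) and the gamma-actin Actg2 (0.40, adjusted p = 0.0553). The YAP target Ccn2 had log2 values of 12.56 and 12.67 in controls and 13.04 and 12.91 after MOF siRNA (0.36, adjusted p = 0.0645). At the other end of the list were the immediate early gene Egr1 (-0.24), Srf itself (-0.16) and Ajuba (-0.09), none of them called. Cytoplasmic beta-actin, Actb, differed by 0.01.

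**Figure D3:**
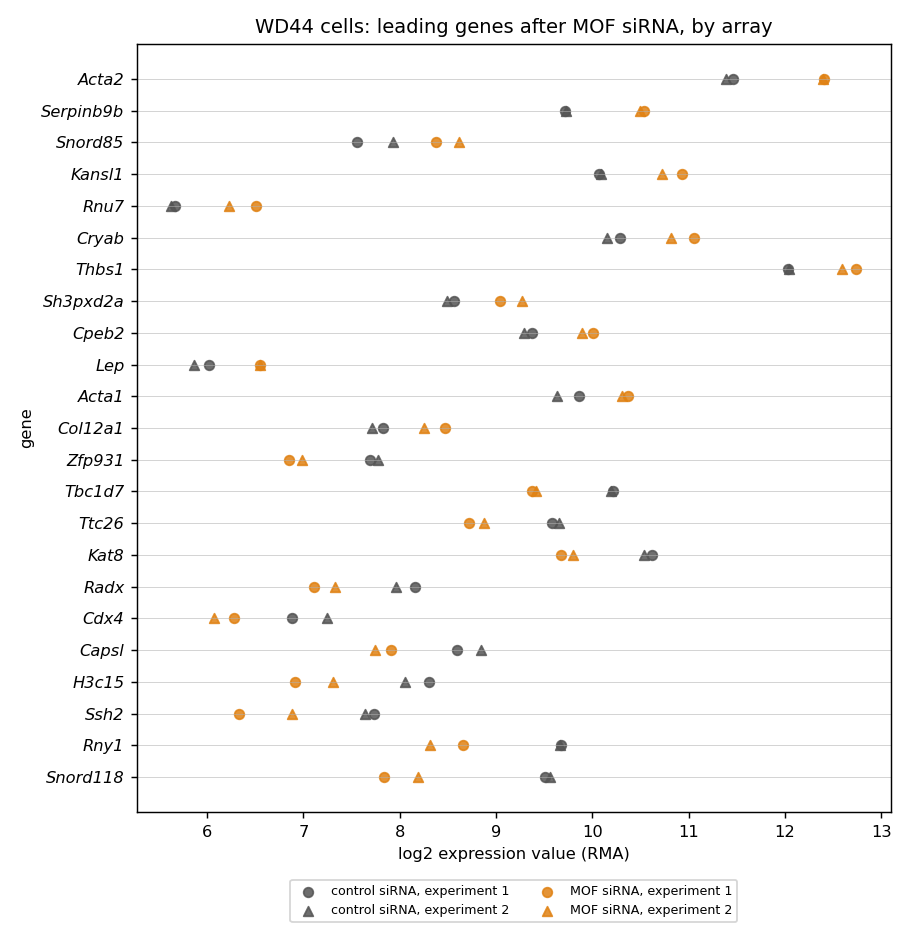
Log2 expression values on each of the 4 WD44 arrays for the 12 probesets called higher and 12 called lower with the largest differences, with Snord118 drawn once for its 2 identical probesets. Grey marks are control and orange marks MOF siRNA arrays, circles experiment 1 and triangles experiment 2, and for each gene the orange and grey marks do not overlap. The genes were picked as called, so this separation is no further support for them.

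Other genes with the largest rises had varied roles. Serpinb9b, a protease inhibitor of the serpin family, rose from 9.72 and 9.73 to 10.54 and 10.49 (0.79, adjusted p = 0.0176). Cryab, the small heat shock protein alpha-B crystallin, rose from 10.29 and 10.15 to 11.05 and 10.82 (0.72, adjusted p = 0.0338). Cpeb2, a regulator of cytoplasmic polyadenylation, rose from 9.37 and 9.29 to 10.01 and 9.89 (0.62, adjusted p = 0.0315). The podosome scaffold Sh3pxd2a rose by 0.63 at probeset 10468309, from 8.56 and 8.49 to 9.04 and 9.27, while its second probeset 10468311 differed by 0.19 (adjusted p = 0.149). The collagen Col12a1 (0.59, from 7.83 and 7.71 to 8.47 and 8.25) and the hormone leptin, Lep (0.61, from 6.02 and 5.86 to 6.55 and 6.55), were dimmer genes. Lep, like 5 other probesets called higher, Rnu7 among them, had a control mean below the level limit and was tested only through its knockdown arrays. Of those called lower, 2 had a knockdown mean below the limit. Both knockdown arrays lay above both controls for Serpinb9b, Cryab, Cpeb2, Sh3pxd2a (10468309), Col12a1 and Lep, and for 28.5% of all probesets. These genes were picked as called higher, so this separation is no further support for them. Other genes called higher, named after their values were seen, included gelsolin Gsn (0.50), caveolin Cav1 (0.43), the latent TGF-beta binding protein Ltbp1 (0.42), the procollagen protease Bmp1 (0.47), tissue factor F3 (0.51), the VEGF receptor Kdr (0.53) and the myelin protein Pmp22 (0.41).

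Small noncoding RNAs stood at both ends of the ranking. Snord118, the box C/D small nucleolar RNA U8 needed for processing of large-subunit ribosomal RNA, had log2 values of 9.51 and 9.56 in controls and 7.84 and 8.19 after MOF siRNA. It fell by 1.52 (SE 0.113, adjusted p = 0.00868), and its 2 probesets (10377429 and 10399428) held identical values and are 1 measurement. Rny1, a Y RNA bound by the Ro protein, fell by 1.18, from 9.67 and 9.66 to 8.66 and 8.31 (adjusted p = 0.0198), and Rny3 by 0.54 (adjusted p = 0.0493). Rnu7, the U7 RNA that guides 3' end formation of histone messages, rose from 5.67 and 5.63 to 6.51 and 6.23 (0.72, adjusted p = 0.0339). Its controls lay below the level limit of 6, so it was tested only because the knockdown arrays were higher. Of 54 small nucleolar RNA genes listed, 53 were tested, 1 was called higher and 4 lower, and 48 did not pass (median -0.08). Over all genes 0.399% were called higher and 0.839% lower. Besides Snord118 the lower ones were Snord35a (-0.72, from 12.23 and 12.12 to 11.40 and 11.52), Snora44 (-0.52) and Snord22 (-0.50). Snord85 rose, from 7.56 and 7.93 to 8.38 and 8.62 (0.76, adjusted p = 0.0464). Whether the probes tell the mature RNA from its precursor was not tested.

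Of 36 histone genes, core and linker, 35 were tested, 2 were called lower and 0 higher (0.839% and 0.399% of all genes), with a median of -0.11. Groups were separate for 4 upward and 17 downward, against 29.1% and 27.9% of all genes. H3c15, an H3 gene of the replication-dependent clusters, fell from 8.30 and 8.05 to 6.91 and 7.31 (-1.07, adjusted p = 0.0331). H2bc8 fell from 9.25 and 9 to 8.25 and 8.48 (-0.76, adjusted p = 0.0357). Histone genes are near-identical copies, so signal may be shared between family members.

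Among the protein-coding genes with the largest falls was Ssh2, a phosphatase that activates the actin-severing protein cofilin. Its probeset 10378855 fell from 7.73 and 7.64 to 6.33 and 6.88 (-1.08, adjusted p = 0.0358), and its brighter probeset 10378833 differed by -0.40 (adjusted p = 0.0553). Capsl, a calcium-binding protein of the calcyphosine type, fell from 8.59 and 8.84 to 7.91 and 7.74 (-0.89, adjusted p = 0.0288). Tbc1d7, the third subunit of the TSC complex that restrains mTORC1, fell from 10.21 and 10.19 to 9.37 and 9.41 (-0.81, adjusted p = 0.0176). Each of the 4 values of this gene lay within 0.04 of its group partner. Of the other 25 genes of the TSC complex and mTORC1 list none was called, the nearest being the GTPase Rheb (-0.38, adjusted p = 0.0595), and the list median was -0.09. Zfp931, a zinc finger protein, fell from 7.69 and 7.77 to 6.85 and 6.99 (-0.81, adjusted p = 0.0198).

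Genes of intraflagellar transport and the BBSome, the machines that build the primary cilium and carry cargo along it, had a negative median with 2 calls. Of 37 genes listed 35 were on the array and 34 tested, 2 were called lower, 0 higher and 32 did not pass. Over all genes 0.839% were called lower and 0.399% higher. The median was -0.27 against 0.005 over all genes (-0.355 in experiment 1 and -0.165 in experiment 2), and it was -0.27 after loess. Both knockdown arrays lay below both controls for 28 of the 34 genes, against 27.9% of all genes, and above for 0. Ttc26, the IFT-B subunit also called IFT56, fell from 9.58 and 9.65 to 8.72 and 8.87 (-0.82, SE 0.0804, adjusted p = 0.0198). Ttc8, the BBSome subunit BBS8, fell from 9.20 and 9.12 to 8.63 and 8.73 (-0.48, adjusted p = 0.0407). Next in order of p were Bbs2 (9.64 and 9.56 against 9.25 and 9.20, adjusted p = 0.0524) and Bbs7 (9.05 and 9.05 against 8.52 and 8.72, adjusted p = 0.0553).

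Low values occurred in each machine, and no part was tested against another. In the BBSome, Bbs4 (-0.38), Bbs5 (-0.37) and Bbs1 (-0.31) lay below the list median, and Bbs9 stood at -0.22. Dync2li1, a light chain of the returning dynein motor, stood at -0.40. In the kinesin-II motor, Kif3a (-0.35) and Kifap3 (-0.27) were lower than Kif3b (-0.14). The smallest differences were those of Ift43 (-0.02), Wdr35 (-0.01) and Ift20 (0.02). With the spread pooled over 27 arrays and the experiment as a block, 11 of the 34 were called lower and 0 higher. This setting was added after the values were seen. Over all tested probesets it called 1076 lower and 730 higher, against 167 and 76 in the main fit. After loess 6 of the 34 were called lower and 0 higher, with 411 lower and 175 higher over all tested probesets. Further cilium genes outside the list, named after their values were seen, were called lower: Lztfl1, a BBSome regulator (-0.51 at probeset 10463263 and -0.30, not called, at 10597973), the transition zone protein Rpgrip1l (-0.52), the planar polarity effector Intu (-0.51) and the small GTPase Rabl2 (-0.41). These further genes were picked from those called lower, and cilium genes outside the list that were not called were not counted. They are therefore no added support for the list. In the other lines the list median was -0.24 in E14 and -0.33 in PGK12.1.

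**Figure D4:**
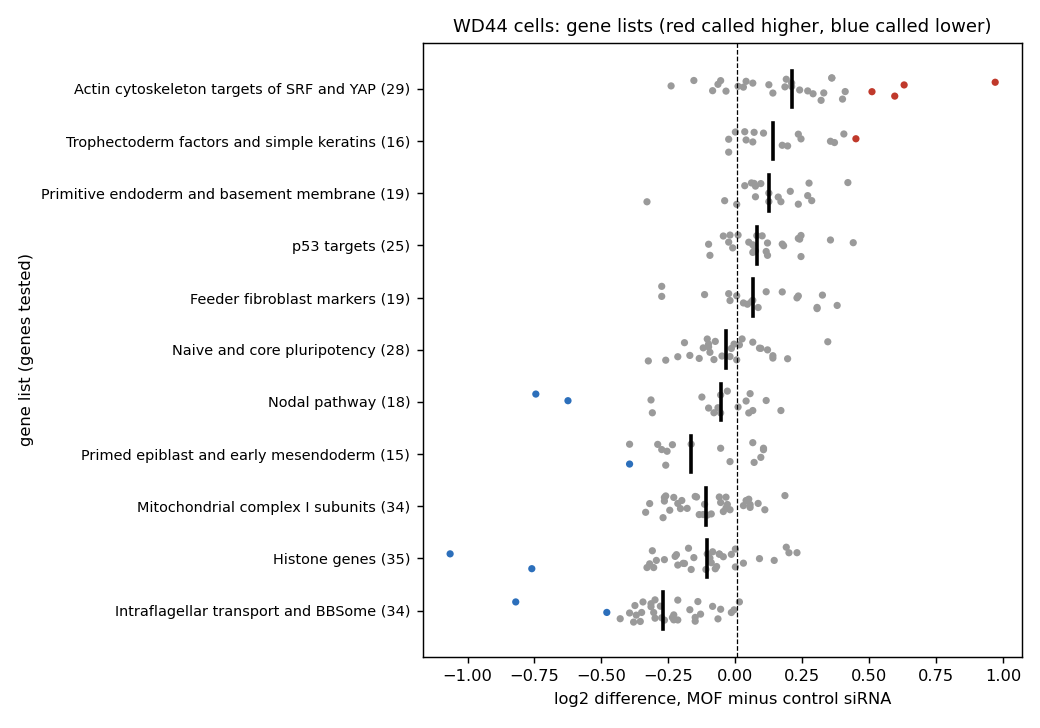
Log2 difference, MOF minus control siRNA, for each tested gene of 11 lists in WD44 cells, with the number tested in brackets. Red points were called higher, blue called lower and grey not called, black bars are list medians and the dashed line is the median of all probesets; the actin list (median 0.21) and the cilium list (median -0.27) lie at opposite ends.

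In the Nodal pathway, 2 secreted inhibitors were lower. Nodal is a TGF-beta family ligand of the early embryo, and the Lefty proteins are its secreted inhibitors and also its targets. Lefty2 fell from 9.32 and 9.49 to 8.50 and 8.82 (-0.75, SE 0.115, adjusted p = 0.0398). Lefty1 fell from 9.86 and 10.09 to 9.28 and 9.42 (-0.63, adjusted p = 0.0401). Both inhibitors had knockdown arrays below their controls, as did 27.9% of all genes, and experiment 2 was higher than experiment 1 in each group. They were named for the smallest p of their list, so this separation is no further support for them. The ligand Nodal (11.10 and 11.27 against 11.27 and 11.23) overlapped between groups. The coreceptor Tdgf1 differed by -0.10, the receptor Acvr2b by -0.31 (adjusted p = 0.0684) and the repressor Skil by -0.32 (adjusted p = 0.0685). Over 18 tested genes of the pathway 2 were called lower and 0 higher (median -0.06), against 0.839% and 0.399% of all genes. Lef1, a transcription factor of Wnt signalling named after its values were seen, fell from 10.27 and 10.31 to 9.74 and 9.75 (-0.55, adjusted p = 0.0315).

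Of 15 tested genes for primed epiblast and early mesendoderm 1 was called lower and 0 higher, with a median of -0.17 (-0.20 after loess). The shares called over all genes were 0.839% and 0.399%. Pou3f1, the POU factor Oct6, fell from 10.95 and 10.96 to 10.56 and 10.56 (-0.40, adjusted p = 0.0464). The formative growth factor Fgf5 had 9.42 and 9.82 in controls and 9.23 and 9.22 after MOF siRNA (adjusted p = 0.107), and Zic2 differed by -0.29 (adjusted p = 0.0805). None of the 28 tested genes of naive and core pluripotency was called (median -0.04). The groups were separate upward for 6 and downward for 9, against 29.1% and 27.9% of all genes. The member with the smallest p was Lin28a, at 11.64 and 11.63 against 11.32 and 11.30 (-0.33, adjusted p = 0.0595).

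Markers of extraembryonic lineages had positive medians and 1 call. Of 16 tested trophectoderm factors and simple keratins 1 was called higher and 0 lower, with a median of 0.14, against 0.399% and 0.839% of all genes called. Groups were separate upward for 8 and downward for 0, against 29.1% and 27.9% of all genes. Krt18 rose from 12.17 and 12.05 to 12.57 and 12.55 (0.45, adjusted p = 0.0436), and its partner Krt8 had 12.84 and 12.76 against 13.18 and 13.16 (0.37, adjusted p = 0.0524). The placental gene Plac1 differed by 0.41 (adjusted p = 0.0507) and the trophoblast factor Hand1 differed by 0.36 (adjusted p = 0.0565). None of 19 tested primitive endoderm and basement membrane genes was called (median 0.13), and 12 were separate upward and 1 downward, against the same 29.1% and 27.9%. Among them the basement membrane collagens Col4a2 (0.42, adjusted p = 0.0796) and Col4a1 (0.27, adjusted p = 0.0814) were above and the endocytic adaptor Dab2 (-0.33, adjusted p = 0.0618) below. Fibrillar collagens of the feeder list lay in the same range, with Col1a1 at 8.98 and 9.08 against 9.50 and 9.32 (0.38, adjusted p = 0.0649) and Col3a1 at 0.31. Other feeder markers, Dcn (-0.28) and Mmp2 (-0.28), lay on the opposite side, and the part of feeder RNA in the collagen and actin values was not tested.

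The X chromosome was described because of the fly dosage compensation known for MOF. WD44 cells carry a single X. Of 579 X-linked genes tested 16 were called lower (2.76%) and 0 higher, against 0.776% and 0.409% of 16627 autosomal genes. The median difference was -0.015 for X-linked and 0.005 for autosomal genes, a shift of -0.02 (-0.04 in experiment 1 and -0.02 in experiment 2). Without knockdown array 2 the shift was -0.04, and with no filter on low values it was -0.005. In both experiments 4 X-linked genes were more than 1.5-fold lower (0.691%) and 0 higher, against 20 (0.12%) and 7 (0.0421%) of the autosomal genes. Groups were separate downward for 32.1% of X-linked and 27.9% of autosomal genes, and upward for 22.6% and 29.2%. In E14 the shift was -0.02 and in PGK12.1 -0.04. Among the chromosomes with more than 7 genes, the X had the highest share called lower, followed by chromosomes 13 (1.97%) and 3 (1.48%). No test of this difference between chromosomes was made.

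The X-linked genes with the largest falls were led by Cdx4, a caudal-type homeobox factor. It fell from 6.88 and 7.24 to 6.28 and 6.07 (-0.89, adjusted p = 0.0351), close to the lower limit of 6. Radx, a single-strand DNA binding protein of replication forks, fell from 8.16 and 7.96 to 7.11 and 7.33 (-0.84, adjusted p = 0.0315). Usp51, a deubiquitinase of histone H2A, fell from 8.41 and 8.55 to 7.57 and 7.78 (-0.81, adjusted p = 0.0288). Arxes1 fell from 8.74 and 8.67 to 8.08 and 8.02 (-0.66, adjusted p = 0.0264), and the kinase Stk26 from 9.78 and 9.90 to 9.10 and 9.35 (-0.62, adjusted p = 0.0407). In each case both knockdown arrays were the lower ones, as they were for 32.1% of X-linked genes. These genes were picked as called lower, so this separation is no further support for them. Eras, an ES cell Ras protein named after its values were seen, fell by 0.58.

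Stress and metabolic lists gave few calls. None of 25 tested p53 targets was called (median 0.08, and 0.12 after loess). Groups were separate upward for 16 and downward for 3, against 29.1% and 27.9% of all genes. Plk2, a polo-like kinase induced by p53, had 10.35 and 10.26 in controls and 10.66 and 10.83 after MOF siRNA (0.44, adjusted p = 0.0523). The list median was 0.20 in E14 and 0.39 in PGK12.1. None of 34 complex I subunits was called (median -0.11, 1 separate upward and 19 downward, against the same shares), and the one with the smallest p was Ndufs4 (12.15 and 12.21 against 11.83 and 11.86, adjusted p = 0.0595). Of 22 lysosomal genes 1 was called, the acid lipase Lipa, which fell from 9.47 and 9.41 to 8.99 and 9.04 (-0.43, adjusted p = 0.0439), while the list median was 0.12. Of 19 sterol synthesis genes 1 was called, Msmo1, which rose from 11.31 and 11.28 to 11.69 and 11.77 (0.44, adjusted p = 0.0422). For both lists the shares over all genes were 0.399% called higher and 0.839% lower.

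In several further lists no gene was called in either direction. They were autophagy (33 genes, median -0.11), the ATF4 and unfolded protein response (23, 0.03), interferon and double-stranded RNA response (20, -0.01), replication licensing (22, -0.09), mitosis (23, -0.05), glycolysis and hypoxia (20, -0.10), redox enzymes (23, -0.01), neuroectoderm (13, -0.05) and two-cell-like genes (6, 0.15, and 0.06 after loess). In the glycolysis and hypoxia list the hypoxia-induced prolyl hydroxylase Egln3 (-0.77, adjusted p = 0.119) and the mitophagy receptor Bnip3 (-0.71, adjusted p = 0.104) had large differences that did not pass. Control array 1 stood apart for Egln3, at 11.27 against 10.31 in control 2 and 10.04 and 10.01 in the knockdown arrays. It did so for Bnip3 too, at 11.21 against 10.44 in control 2 and 9.99 and 10.24 in the knockdown arrays. Over all 28 lists 7 genes were called higher and 14 lower of 600 tested, against 0.399% and 0.839% of all genes. Kat8, the siRNA target itself, is among the 14. Members and lists were chosen with earlier results of these data known, so these counts are description only. After centring of each array on its median these counts were 9 and 45, of which 10 lower calls came from the cilium list.

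Some groups were gathered after the values were seen and are given as description only. Germline and meiosis genes had 5 of 22 called lower and 0 higher, against 0.839% and 0.399% of all genes (median -0.15, and -0.19 after loess). They were the synaptonemal complex genes Sycp3 (8.32 and 8.29 against 7.47 and 7.73) and Sycp1, the piRNA pathway gene Mael (9.92 and 10.02 against 9.43 and 9.41), and the meiotic genes Meioc and M1ap. Of 339 tested genes named Zfp, for zinc finger proteins, 13 were called lower and 0 higher, against 0.839% and 0.399% of all genes (median -0.11). Groups were separate downward for 176 and upward for 40, against 27.9% and 29.1%. Olfactory receptor genes, which ES cells are not known to use, had 2 called higher and 1 lower of 308 tested from 1027. Their median was 0.14, and 0.04 after loess. The shares called over all genes were 0.399% higher and 0.839% lower.

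MicroRNA genes leaned upward. Of 300 on the array 189 passed the level limit, 9 were called higher and 1 lower, and the median was 0.21, or 0.12 after loess. Over all genes 0.399% were called higher and 0.839% lower, with a median of 0.005. Dim probesets also leaned upward, with a median of 0.075 in bin 2 (mean of 7.16 to 8.18). The median level of microRNA probesets was 7.48. The 189 were taken by name and include host genes such as Mir17hg, whereas the 29 and 157 below were taken by RefSeq gene class. Mir341, Mir370 and Mir679, all from the imprinted Dlk1-Dio3 cluster on chromosome 12, were among the 9 and are shown as an example chosen after the values were seen. Of 29 tested microRNA genes between Dlk1 and Dio3, these 3 were called higher and 0 lower, with a median of 0.13, against 0.21 for 157 other microRNA genes. Mir341 rose from 9.68 and 9.84 to 10.43 and 10.21 (0.56, adjusted p = 0.0464). Mir370 rose from 6.65 and 6.67 to 7.19 and 7.14 (0.51, adjusted p = 0.0339). Mir679 rose from 8.87 and 8.78 to 9.34 and 9.24 (0.47, adjusted p = 0.0422). Their mature forms in RefSeq (GRCm38.p6) are shown to identify them, with the seed, bases 2 to 8, in capitals. No seed is shared among the 6. The probes report RNA over the gene and were not shown to measure the mature form.
mmu-miR-341-5p: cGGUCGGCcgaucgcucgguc
mmu-miR-341-3p: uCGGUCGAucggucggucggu
mmu-miR-370-5p: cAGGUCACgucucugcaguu
mmu-miR-370-3p: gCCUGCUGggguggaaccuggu
mmu-miR-679-5p: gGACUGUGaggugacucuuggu
mmu-miR-679-3p: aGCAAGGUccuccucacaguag

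Where a gene had several probesets, more than 1 was called lower for 4 genes with at least 3 probesets. Dennd4a, a guanine nucleotide exchange factor for Rab10, had 5 of 9 called lower (median -0.61, from -0.68 to -0.21). Chd7, a chromatin remodeler, had 5 of 30 called lower, and its 30 differences ran from -0.65 to -0.03. Dip2c had 2 of 5 and Zfp738 2 of 3 called lower. For none of the 4 was a probeset called higher.

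CpG content was read from the promoters of the called protein-coding genes. In the 117 of 136 with a RefSeq promoter window the median observed-to-expected CpG ratio was 0.632 (quartiles 0.463 and 0.804), against 0.698 (0.381 and 0.874) over all tested protein-coding genes with a window. The genes called higher had a window in 37 of 50 cases (74%), and because fewer than 80% have one this check is void for them.

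The knockdown effect in WD44 was then set beside the other lines. Across the 18870 probesets the WD44 difference correlated at 0.380 with E14 and at 0.488 with PGK12.1, and experiments 1 and 2 of WD44 correlated at 0.562. These values are across probesets, which are not independent, and each line had its own controls. Of the 167 probesets called lower in WD44, 120 were lower in both E14 experiments (71.9%) and 126 in all 3 PGK12.1 experiments (75.4%). Among all 9135 probesets that were lower in WD44 the shares were 42.9% and 37%. Of the 76 called higher 40 were higher in both E14 experiments (52.6%, against 42.7% of 9509) and 29 in all 3 of PGK12.1 (38.2%, against 30.1%). For 98 of the 167 lower probesets (58.7%) and 16 of the 76 higher ones (21.1%) the sign was shared by every experiment of all 3 lines. The calls chose the WD44 side, so its median of -0.52 for the lower set is not comparable with -0.24 in E14 and -0.34 in PGK12.1.

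The genes differed in how far the other lines followed. Acta2 was higher in both E14 experiments (0.56 and 0.54) and in all of PGK12.1 (0.29, 0.05 and 0.54). Ttc26 was lower in E14 (-0.30 and -0.47) and in PGK12.1 (-0.74, -1.18 and -1.17), and Ssh2 at probeset 10378855 was lower in both (-0.63 and -0.57, and -0.33, -1.53 and -1.06). Tbc1d7 differed by -0.10 and -0.41 in E14 and by -0.80, -0.94 and -0.87 in PGK12.1. Snord118 went the other way in 2 of the PGK12.1 experiments (0.28, 0.80 and -0.10). Cdx4 stood at 0.17 and 0.06 in E14, and H3c15 at -0.03 and -0.02.

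A limma interaction term tested the difference itself. Between WD44 and E14 it was called for 12 of 18870 probesets (0.0636%), 7 with a higher difference in WD44, and for 0 with the experiments as a block. Snord118 fell in WD44 and differed by 0.06 and -0.27 in E14, a gap of -1.42 between lines (SE 0.169, adjusted p = 0.039). For Ccn1 (0.76, SE 0.101) and Edn1 (0.81, SE 0.104) the E14 differences were negative (-0.32 and -0.18, and -0.38 and -0.16), and the adjusted p was 0.0394 for each. Without control 1 or knockdown 1 no difference was called, and without control 2 or knockdown 2 there were 2. Over the whole actin list the median was 0.21 in WD44, -0.02 in E14 and 0.12 in PGK12.1. Between WD44 and PGK12.1 no probeset passed (131 at an unadjusted p under 0.05, against 2587 for E14), and 1 was called with the experiments as a block. The PGK12.1 fit held experiments with and without the second round of siRNA together, with no term for that round. The lack of calls therefore does not show that WD44 and PGK12.1 responded alike.

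**Figure D5:**
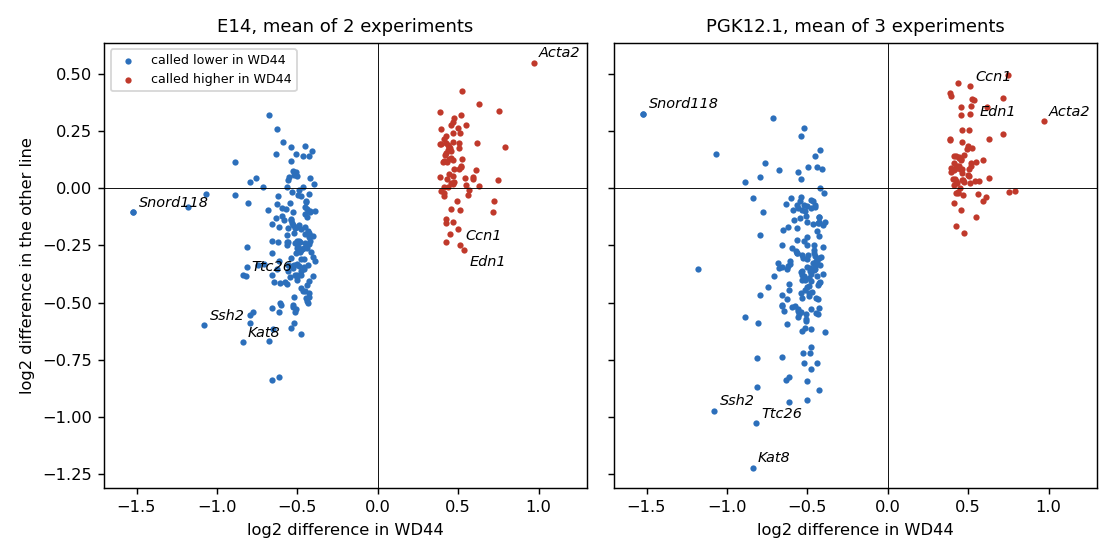
Log2 difference, MOF minus control siRNA, for the 243 probesets called in WD44, in WD44 (horizontal) and in E14 or PGK12.1 (vertical, mean of 2 or 3 experiments). Most blue points lie below zero in both panels, Acta2 is above zero in both, and Ccn1 and Edn1 are below zero in E14 and above it in PGK12.1.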

How the data were processed

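Affymetrix mouse gene arrays were hybridised with ES cell RNA. The authors deposited log2 expression values made with Affymetrix Expression Console and RMA, per the submitters' processing notes. Software versions and a build are not given in the sources used here. RMA corrects background, quantile-normalizes and summarizes probes. WD44 values carry 2 decimals, and 22 tested probesets had no spread within either group. Probesets took names from the platform annotation, updated by gene ID through RefSeq (GRCm38.p6, 21698 of 21789 matched); 1621 had several symbols and 12146 none.

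The main fit was limma 3.58.1 in R 4.3.3 on the 4 WD44 arrays (group means, 2 residual and 5.65 prior degrees of freedom), Benjamini-Hochberg adjusted over 18870 probesets, called under 0.05. It was tested on simulated data. Lists took 1 probeset per gene, that with the highest mean. The number of arrays limits the precision.

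The labels pair arrays by experiment number. As a check, deviations from the group means of arrays with the same number correlated at -0.009, so the data showed no shared deviation. Alternatives were the replicate block, scaling, filters, naming, spread and leaving out arrays, plus a pooled spread with the block, chosen after seeing the data.

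The genes named by rule are Kat8, up to 12 probesets called each way with the largest change, up to 5 X-linked each way and up to 4 per list by p. Some others are marked as named after their values were seen. Further list members, such as Tpm2, Cald1, Bbs4 and Egln3, are named outside this rule without a mark. Members and lists were chosen with earlier results of these data known.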

Additional observations from a re-analysis of the deposited data

Results flagged for a closer look

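The MOF effect differed between WD44 and E14 cells by the limma interaction term for 12 probesets, listed here as the WD44 log2 difference minus the E14 one. Snord118 had -1.42 at both probesets, Gmnc -0.995, Foxi3 -0.825 and Mir1839 -0.795. On the other side were Myof at 0.865, Edn1 at 0.805, Mme at 0.79, Lrrc8c at 0.78, Ccn1 at 0.76, Olfr1372-ps1 at 0.725 and Cald1 at 0.705. Adjusted p-values ran from 0.039 to 0.0429. In both E14 experiments Myof (-0.55 and -0.53), Lrrc8c (-0.52 and -0.61), Mme (-0.52 and -0.45) and Cald1 (-0.38 and -0.31) were lower after MOF siRNA, while in WD44 they differed by 0.33, 0.22, 0.31 and 0.36 and were not called. With the experiments as a block none of the 12 was called.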

How the results depend on the processing

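The count of 243 called probesets moved with most settings: 0 with the replicate block, 676 with each array centred, 586 with cyclic loess, 27 with no filter on low values, 567 with a mean of at least 7, 5 with probesets of several symbols kept, 431 with a trend, 455 with a robust prior, 22 with a plain t (0 of them among the 243), 73 with the spread pooled over 27 arrays and 1806 with that spread and the block (added after seeing the data). Prior degrees of freedom moved with it, from 5.65 to 4.44 with several symbols kept. The 22 calls of the plain t equal in number the 22 tested probesets with no spread within either group. For such probesets that t divides by 0, so this count is not one of supported changes. Leaving out each array in turn gave 0 every time. Of the 130 named probesets none reversed in the 15 settings run. The block, trend, prior, plain t, filter, naming and spread settings leave the log2 difference itself unchanged, so no reversal was possible in them. Only centring, loess and leaving out arrays could change a sign. Of the 39 called, 39 lost the call with the block and 39 with a plain t. The call was lost for 34 with several symbols kept, 26 with the pooled spread and 25 with no filter. With the pooled spread and block it was lost for 2. The 40 probesets past 1.5-fold in both experiments were 48 when centred, 32 with crossed pairing and 42 with no filter. The X shift of -0.02 was -0.005 with no filter and -0.04 to -0.015 without single arrays. The 21 list genes were 54 when centred and 0 with the replicate block. The 12 differences from E14 became 0 with the replicate block and 0 to 2 without single WD44 arrays, and the count for PGK12.1 went from 0 to 1 with the replicate block. The causes were not tested.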
